A study of Mus musculus with 12 samples.

Results

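The effect of *Ppargc1b* knockdown was examined in dendritic cells (DCs) that had been given interferon-β (IFN-β). The comparison set 3 sh*Ppargc1b* libraries against 3 shControl libraries, all 6 from IFN-β-treated cells, out of 12 libraries in the series. It covered the 18228 genes with enough counts to be tested, of 55471 genes in the table. The cells were grown from the bone marrow of adult female C57BL/6 mice in granulocyte-macrophage colony-stimulating factor (GM-CSF), a cytokine that gives cultures of DC-like and macrophage-like cells. They carried a retrovirus with a short hairpin RNA (shRNA) against *Ppargc1b* or, in shControl, against firefly luciferase, a gene that mouse cells lack. The labels do not name the hairpin. Its effects on genes other than its target were not tested and cannot be told apart here from those of less *Ppargc1b*. Cells with the virus were collected on magnetic beads through a human CD8 reporter, and both groups then received IFN-β for 6 h. The labels did not say whether the libraries of a group came from separate cultures or animals, so p-values measure the spread between these libraries only. The other 6 libraries came from unstimulated cells of the same 2 genotypes and were used for the shared estimate of dispersion and for the test of whether the knockdown effect differed between treatments.

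PGC-1β, the product of *Ppargc1b*, binds no DNA itself and is recruited by transcription factors such as the estrogen-related receptors and the nuclear respiratory factors, through which it co-activates genes of the citric acid (TCA) cycle, the respiratory chain and fatty acid oxidation. IFN-β acts through its receptor and the kinases JAK1 and TYK2 on transcription factors that bind interferon-stimulated response elements and gamma-activated sites in the promoters of induced genes. Maturing DCs switch on the receptor CCR7 and the chemokines CCL17 and CCL22, and lower many of the uptake receptors they used as immature cells.

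The 6 libraries held 49.9 to 77.7 M counts each. The first principal component of these libraries, with 42.7% of the variance, separated the genotypes, from -29.6 to -27.3 in shControl and from 25.6 to 32.2 in sh*Ppargc1b*. The second, with 17.1%, separated them by the run of consecutive library codes (883 to 886, 887 to 890 and 891 to 894), each of which holds 1 library of every group. No labelled batch was given. Among sh*Ppargc1b* libraries, replicate 2 stood further from its group, with a chi-square per degree of freedom over genes of 21.3 and 16.7 against replicates 1 and 3, which differed from each other by 8.54. The other replicate pairs of the series were between 9 and 14.8. In CPM, the count of a gene relative to the size of its library after TMM normalisation, *Ppargc1b* (chr18:61298136-61400431, minus strand, GRCm38) was at 31.4, 23.6 and 28.4 in the shControl and at 19.6, 15.5 and 20.9 in the sh*Ppargc1b* libraries. Every sh*Ppargc1b* library was below every shControl library, so the label held, but the knockdown was partial: 67.2% of the control level remained (log2 fold change -0.57 ± 0.11 SE, adjusted p = 9.5e-04). The exact two-sided permutation p was 0.1, the smallest that 3 libraries against 3 allow.

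Of the 18228 genes, 4414 (24.2%) passed an adjusted p of 0.05, 2090 (11.5%) with more and 2324 (12.7%) with less transcript in sh*Ppargc1b* cells. Without sh*Ppargc1b* replicate 2, 3992 passed. The balance of higher and lower genes depended on the fit, and 43.2% to 54.4% of the calls were higher over the alternative analyses. The first 3 percentages are the background against which the gene lists below are read. Because RNA was measured in bulk, fewer cells of a type and less RNA per cell cannot be told apart in any of them. Most of these changes were small: the median absolute log2 fold change of the genes that passed was 0.37, and 63.5% of them changed by less than 0.5. Larger changes, past the same threshold and of 1 log2 unit or more, were found in 576 genes (3.16%) and were mostly rises, with 442 genes (2.42%) higher and 134 (0.735%) lower. The median over all genes was -0.01 after TMM scaling.

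**Figure D1:**
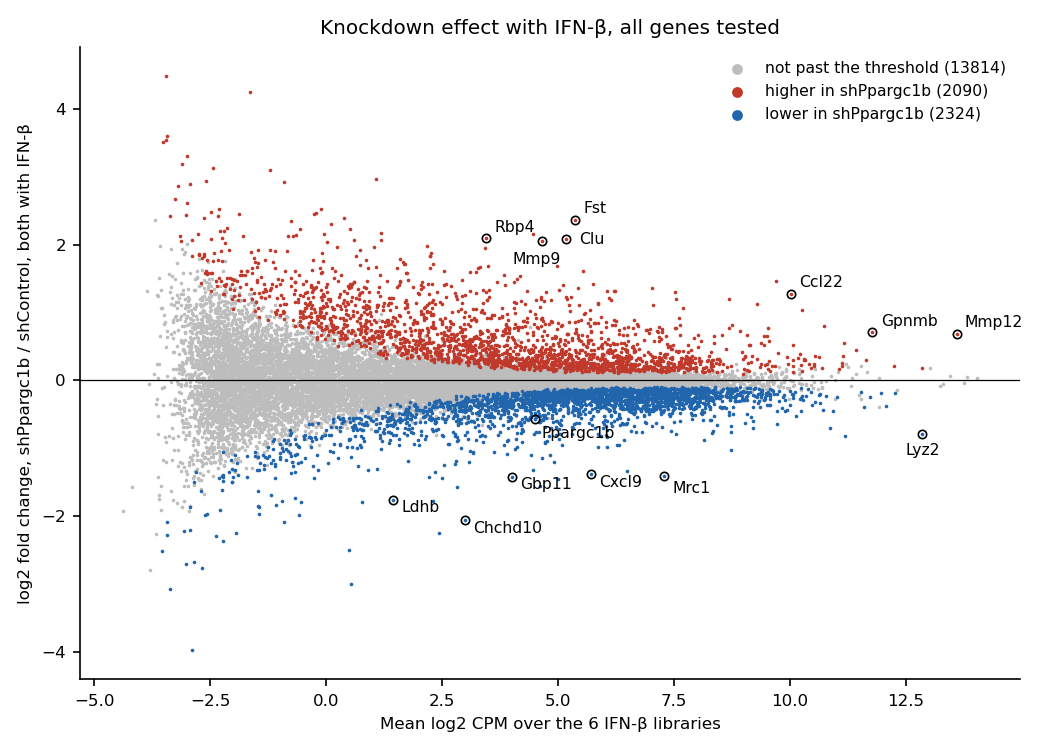
Mean log2 CPM over the 6 IFN-β libraries (x axis) against the log2 fold change of sh*Ppargc1b* over shControl (y axis), 1 point per tested gene, with 2090 genes higher (red), 2324 lower (blue) and 13814 not past the threshold (grey). *Fst*, *Clu*, *Mmp9* and *Rbp4* stand at the top and *Chchd10*, *Ldhb*, *Gbp11*, *Mrc1* and *Cxcl9* at the bottom of the genes marked, while *Ppargc1b* itself is at -0.57.

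The 12 largest rises, among named genes with a mean log2 CPM of at least 3, included secreted proteins and matrix genes. *Fst* (chr13:114452290-114458951), which encodes follistatin, a secreted protein that binds and blocks activins, was at 18.8, 20.9 and 15.5 CPM in shControl and at 82.2, 116 and 86 CPM in sh*Ppargc1b* libraries. The groups were far apart, with a log2 fold change of 2.37 ± 0.16 (adjusted p = 9.2e-08). *Inhba*, the activin A subunit gene, rose as well, from 851, 1004 and 729 CPM to 1595, 2077 and 1617 CPM (1.03 ± 0.12, adjusted p = 1.7e-05). *Clu*, the gene of the extracellular chaperone clusterin, was at 17.7, 18 and 17.4 CPM against 89.1, 65.7 and 69.2 CPM, and rose by 2.08 ± 0.11 (adjusted p = 2.0e-08). *Rbp4*, which encodes the plasma carrier of retinol, rose by 2.09 ± 0.19 (adjusted p = 1.8e-06). The others were *Cstdc4* (2.16), *Mmp9* (2.05), *Timp3* (1.96), *Flnc* (1.68), *Emp2* (1.68), *Csta2* (1.65), *Slco4a1* (1.61), *S1pr3* (1.60) and *Itgb3* (1.59), all with an adjusted p of 1.3e-05 or less. In none of these genes did the groups overlap, which was part of the rule that picked them.

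The 12 largest falls by the same rule held genes of macrophage-type uptake, of interferon response and of enzymes. *Mrc1* (chr2:14229392-14332057), the mannose receptor that takes up glycoproteins, was at 271, 225 and 276 CPM in shControl and at 95.6, 82.7 and 110 CPM in sh*Ppargc1b* libraries, and fell by 1.42 on the log2 scale (SE 0.11, adjusted p = 5.8e-07). *Ace* (chr11:105967945-105989964), which encodes angiotensin-converting enzyme, a peptidase that also trims peptides for MHC class I, was at 44.2, 39.1 and 45.2 CPM against 17.7, 9.9 and 16.2 CPM (-1.56 ± 0.15, adjusted p = 4.4e-06). *Ear2*, an eosinophil-associated ribonuclease gene with close paralogs, fell from 161, 124 and 156 CPM to 73, 36.3 and 65.2 CPM (-1.34 ± 0.21, adjusted p = 2.8e-04). In each of these 3 genes the second sh*Ppargc1b* library was the lowest. The interferon-induced *Cxcl9* (-1.39) and *Gbp11* (-1.42) were also among the 12, as were *Nhsl2* (-1.46), *Arhgap15* (-1.32), *Asb4* (-1.20), the peroxisomal fatty acid transporter gene *Abcd2* (-1.20), *Ly6a2* (-1.14), *Lilra6* (-1.11) and *Selenbp1* (-1.10). Several of these, such as *Ly6a2*, *Lilra6* and the guanylate-binding proteins, belong to multigene families, so their counts are uncertain where copies share sequence.

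**Figure D2:**
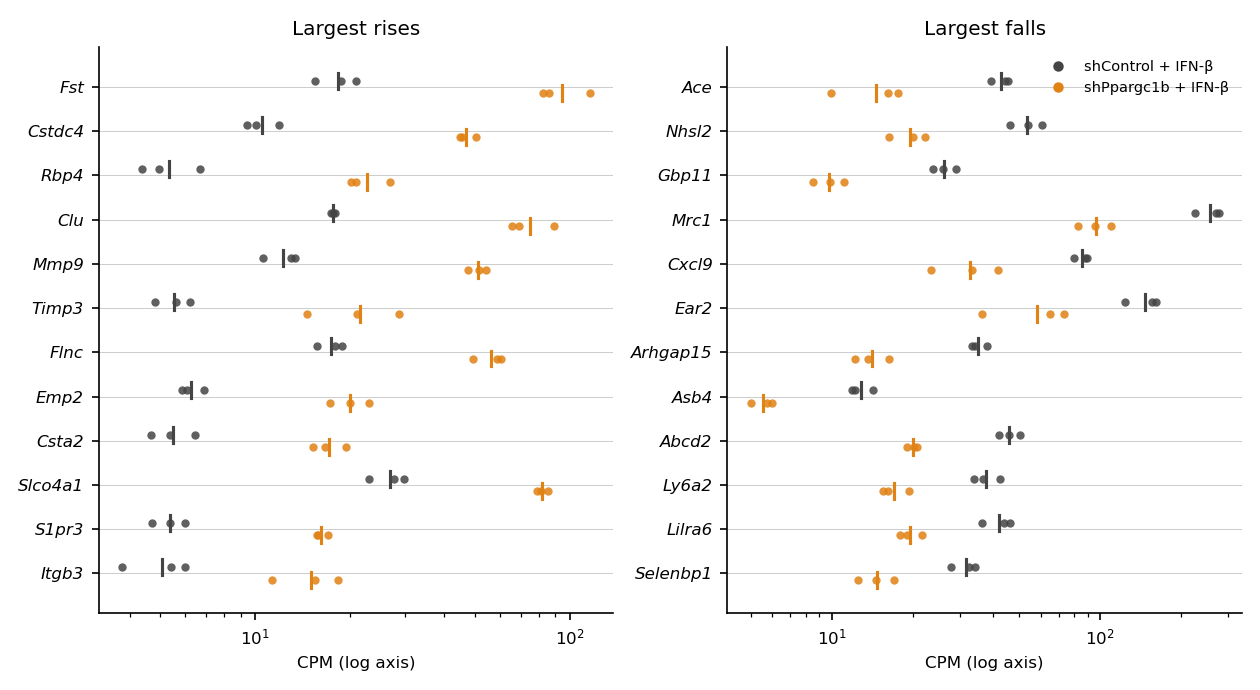
CPM on a log axis in each IFN-β library for the 12 genes with the largest rise (left) and the 12 with the largest fall (right), with 1 dot per library, black for shControl and orange for sh*Ppargc1b*, and a bar at each group mean. For every gene the 3 libraries of one genotype lie on one side of the 3 of the other, as the choice of genes required.

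In absolute terms the largest gain was in *Mmp12*, the macrophage elastase gene, which went from 9800, 10236 and 9244 CPM to 14616, 17577 and 14896 CPM (0.69 ± 0.08, adjusted p = 1.0e-05). *Gpnmb*, a glycoprotein gene of lysosome-rich macrophages and osteoclasts, rose from 2667, 2568 and 2995 CPM to 4598, 4389 and 4472 CPM (0.71 ± 0.06, adjusted p = 9.0e-07). The largest loss was in *Lyz2*, the lysozyme gene of myeloid cells, from 9946, 9203 and 9850 CPM to 5738, 5108 and 5912 CPM (-0.79 ± 0.06, adjusted p = 2.3e-07). *Fn1*, which encodes fibronectin, fell from 3195, 3215 and 2873 CPM to 1646, 1914 and 1682 CPM (-0.82 ± 0.08, adjusted p = 3.5e-06). These 4 genes had no overlap between groups. The other gains were in *Ccl22*, *Mmp13*, *Inhba* and *B2m*, and the other losses in *Ccl6* (-0.38), the cathepsin genes *Ctsc* (-0.71) and *Ctss* (-0.19), and *Ahnak* (-0.39). The rise of *B2m*, the light chain of MHC class I, was 0.18 ± 0.05 (adjusted p = 0.0208) and was lost when certain single libraries were left out, with an adjusted p of up to 0.128 without shControl replicate 1.

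The partners of PGC-1β were examined next. Of 19 tested co-activators and partner factors, *Ppargc1b* included, 7 fell and 1 rose, and 4 fell without the filter on low counts. *Esrra*, the gene of estrogen-related receptor α, was at 39, 39.1 and 39.3 CPM in shControl and at 30, 30.8 and 31.7 CPM in sh*Ppargc1b* libraries, and fell by 0.34 on the log2 scale (SE 0.04, adjusted p = 3.3e-05). *Rxra*, the shared partner of many nuclear receptors, fell by 0.31 (adjusted p = 0.00147), and *Gabpb2*, a subunit gene of nuclear respiratory factor 2, fell by 0.23 (adjusted p = 0.00121). *Pprc1*, the third member of the co-activator family, moved the other way, from 19.9, 17.5 and 17.2 CPM to 27.3, 23.2 and 24.9 CPM (0.47 ± 0.11, adjusted p = 0.0044). *Tfam*, which packages mitochondrial DNA and starts its transcription, fell by 0.23 (adjusted p = 0.0263), a call that was lost in 7 of the 18 alternative analyses, with an adjusted p of up to 0.0985. *Nrf1* (-0.12 ± 0.06, adjusted p = 0.155), *Pparg* (-0.15 ± 0.10, adjusted p = 0.315) and *Ppard* (0.09 ± 0.07, adjusted p = 0.416) did not pass. *Ppargc1a*, the other close relative, had 1 to 9 counts in these libraries and was not tested.

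Genes of the respiratory chain were mostly lower in sh*Ppargc1b* cells, by small amounts that the replicates resolved. Among nuclear-encoded subunits, 12 of 36 complex I genes, 8 of 10 genes of complex III and cytochrome c, 10 of 13 complex IV genes and 12 of 18 ATP synthase genes fell, against 12.7% of all genes, and 1 complex IV gene, *Ndufa4*, rose. The medians of these lists were -0.19, -0.25, -0.25 and -0.24. In complex II, which joins the TCA cycle to the chain, all 4 subunit genes fell and none of the 4 assembly factor genes passed. *Sdha*, the flavoprotein subunit, was at 131, 126 and 134 CPM in shControl and at 98.3, 94.7 and 101 CPM in sh*Ppargc1b* libraries (-0.41 ± 0.04, adjusted p = 9.1e-06). *Sdhd*, a membrane anchor subunit, was at 79.3, 75.7 and 80.4 CPM against 58.4, 57.8 and 60 CPM (-0.42 ± 0.04, adjusted p = 3.8e-06). The groups were clear of each other for both genes. *Uqcrh*, the hinge protein of complex III, fell by 0.50 (SE 0.06, adjusted p = 1.7e-05), and *Cox4i1* and *Cox5a* of complex IV fell by 0.35 and 0.37. *Atp5b*, the catalytic β subunit of ATP synthase, was at 397, 384 and 408 CPM against 275, 263 and 291 CPM (-0.52 ± 0.05, adjusted p = 4.2e-06). *Ndufa4* rose by 0.29 (adjusted p = 0.0302), which was lost without single libraries (up to 0.146 without shControl replicate 3).

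Genes that build and maintain mitochondria were not lower as lists. Of 77 mitochondrial ribosomal protein genes, 5 rose and 4 fell, with a median of 0.03, and of 36 genes of protein import and chaperones, 5 rose and 5 fell, with a median of 0.00. In both lists the share of calls in each direction was near or under the background, and most of these calls rested on single libraries, as 2 ribosomal genes rose without shControl replicate 1, 1 fell without unstimulated shControl replicate 3, and 0 import genes rose without shControl replicate 3. Of 18 complex I assembly factor genes, *Foxred1* (-0.29), *Dmac1* (-0.20, lost in 14 of the 18 alternative analyses, up to 0.245) and *Dmac2* (-0.38) fell. Of 13 coenzyme Q synthesis genes, *Coq3* rose (0.30, adjusted p = 0.0126, and 0.0798 without sh*Ppargc1b* replicate 3), and of 11 fusion and fission genes, *Opa1* fell, while *Mfn2* (-0.06, adjusted p = 0.477) and *Dnm1l* (0.10, adjusted p = 0.0697), which act in fusion and in fission, did not pass. The 13 protein genes of the mitochondrial genome itself gave 7 that could be tested, of which 4 rose and 1 fell, with a median of 0.23. *mt-Nd1* was at 2858, 2780 and 2985 CPM in shControl and at 3779, 2961 and 3831 CPM in sh*Ppargc1b* libraries, so that the second sh*Ppargc1b* library lay among the controls (0.29 ± 0.08, adjusted p = 0.0112). The number that rose was 0 without shControl replicate 2 or sh*Ppargc1b* replicate 1 or 3, 1 without shControl replicate 1, and at most 5 without any other library. *mt-Nd6*, which is on the opposite strand of that genome, went from 265, 277 and 257 CPM to 207, 251 and 210 CPM (-0.26 ± 0.07, adjusted p = 0.00978).

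Genes of the pathways that feed the chain fell as well. In the list of the TCA cycle and pyruvate dehydrogenase, 18 of 29 genes fell and *Pdp1*, a phosphatase that switches pyruvate dehydrogenase on, rose (0.38, adjusted p = 4.7e-04), with a median of -0.24. *Dlat*, the acetyltransferase of pyruvate dehydrogenase, was at 44.7, 42.7 and 42.9 CPM in shControl and at 31.9, 32.5 and 29.8 CPM in sh*Ppargc1b* libraries (-0.47 ± 0.05, adjusted p = 4.9e-06). The list also holds kinases that switch pyruvate dehydrogenase off, and 2 of them, *Pdk2* (-0.44, adjusted p = 0.00879) and *Pdk3* (-0.44, adjusted p = 1.4e-04), fell as well. Of 23 genes of mitochondrial fatty acid oxidation, 10 fell and none rose. *Cpt1a*, which admits long-chain fatty acids into mitochondria, was at 148, 141 and 156 CPM against 103, 89.9 and 94.8 CPM (-0.63 ± 0.05, adjusted p = 5.1e-07), and *Acaa2* and *Hadhb*, which act in the last steps of the oxidation cycle, fell by 0.66 and 0.58. These 3 oxidation genes had every sh*Ppargc1b* library under every shControl library.

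The estrogen-related receptor element, the DNA site of the main PGC-1β partner, was searched as TNAAGGTCA on both strands. It was in 1.28% of all promoters, in 1 of 34 complex I, 1 of 7 complex II, 1 of 19 ATP synthase and 1 of 33 TCA cycle promoters, and in none of the 6 of complex III, the 11 of complex IV or the 20 of fatty acid oxidation in these windows. Single matches were also found in other lists, such as 1 of 22 NF-κB and 1 of 24 cholesterol promoters. The ATP synthase promoter with a match is that of *Atp5g3* (chr2:73911327-73911436, minus strand), which encodes a subunit of the rotor ring, and it is printed with the match in capitals, which reads TGACCTTGA because the site lies on the opposite strand.
Atp5g3: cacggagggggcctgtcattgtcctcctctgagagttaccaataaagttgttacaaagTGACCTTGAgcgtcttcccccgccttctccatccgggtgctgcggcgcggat
*Atp5g3* fell by 0.41 on the log2 scale (adjusted p = 7.8e-06).

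The largest fall of any mitochondrial gene listed was in *Chchd10* (chr10:75933130-75937747), which encodes a small protein of the intermembrane space near cristae junctions. It was at 17.9, 14.6 and 15.9 CPM in shControl and at 3.71, 4 and 3.88 CPM in sh*Ppargc1b* libraries, with means of 16.1 ± 1.68 and 3.86 ± 0.143 CPM (SD, n = 3 each) and no overlap (-2.06 ± 0.09, adjusted p = 3.0e-09). The other 20 genes of cristae organisation and of the CHCHD family moved little: 4 fell, *Chchd4* rose (0.35, adjusted p = 0.0462, and 0.234 without sh*Ppargc1b* replicate 1), and the median of the list was -0.12. *Chchd3*, a subunit of the MICOS complex that shapes cristae, fell by 0.25 (adjusted p = 0.00114). *Opa1*, the inner membrane fusion GTPase, fell by 0.14 (adjusted p = 0.00725), a call lost without the filter on low counts (adjusted p = 0.132), where 2 genes of the list fell instead of 5.

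Glycolysis genes also fell. Of 25 genes of glycolysis and lactate export, 16 fell and *Eno2*, an enolase gene, rose (0.92, adjusted p = 4.5e-04), with a median of -0.25. *Hk1*, a hexokinase gene, was at 250, 232 and 257 CPM in shControl and at 142, 171 and 173 CPM in sh*Ppargc1b* libraries (-0.61 ± 0.08, adjusted p = 3.3e-05). *Gpi1*, the next enzyme, was at 1376, 1292 and 1383 CPM against 834, 988 and 999 CPM (-0.52 ± 0.07, adjusted p = 7.0e-05). For both genes the first sh*Ppargc1b* library was the lowest. *Ldhb*, the lactate dehydrogenase subunit of oxidative tissues, fell furthest, from 5.38, 5.03 and 4.57 CPM to 1.72, 1.17 and 1.53 CPM (-1.76 ± 0.15, adjusted p = 1.1e-06). The glucose transporter gene *Slc2a1* was at 564 ± 21.7 against 565 ± 91.5 CPM (SD, n = 3 each). Of 17 targets of hypoxia-inducible factor, some of them shared with the glycolysis list, 9 fell, with a median of -0.24, and the gene that rose was *Hif1a*, one of the factor's own subunits (0.31, adjusted p = 8.6e-04). *Bnip3*, a mitophagy receptor gene of that list, was at 349, 363 and 364 CPM against 215, 315 and 273 CPM (-0.42 ± 0.11, adjusted p = 0.0105).

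Antioxidant enzyme genes were near the background as a list. Of 18 such genes, which include cytosolic enzymes, 3 rose (16.7%) and 2 fell (11.1%), and those that rose were *Prdx6*, *Prdx1* and *Sod1*. Of 22 targets of NRF2, the regulator of the oxidative stress response, 6 rose (27.3%, against 11.5% of all genes) and 2 fell (9.09%). The number of NRF2 targets that rose was 4 to 9 with 1 library left out. *Prdx1*, a cytosolic peroxiredoxin gene, was at 2337, 2470 and 2291 CPM in shControl and at 3101, 3400 and 3200 CPM in sh*Ppargc1b* libraries (0.45 ± 0.05, adjusted p = 1.4e-05). *Nqo1*, a quinone reductase gene and a common NRF2 readout, was at 27.7, 29.4 and 30.6 CPM against 47.2, 47 and 46 CPM (0.67 ± 0.05, adjusted p = 2.8e-07). *Slc7a11*, the cystine importer, rose by 0.52 (adjusted p = 1.1e-05). *Hmox1*, another NRF2 target, moved down instead, with a log2 fold change of -0.46 ± 0.16 at the edge of the threshold (adjusted p = 0.0499, lost in 10 alternative analyses, up to 0.185 without sh*Ppargc1b* replicate 1).

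**Figure D3:**
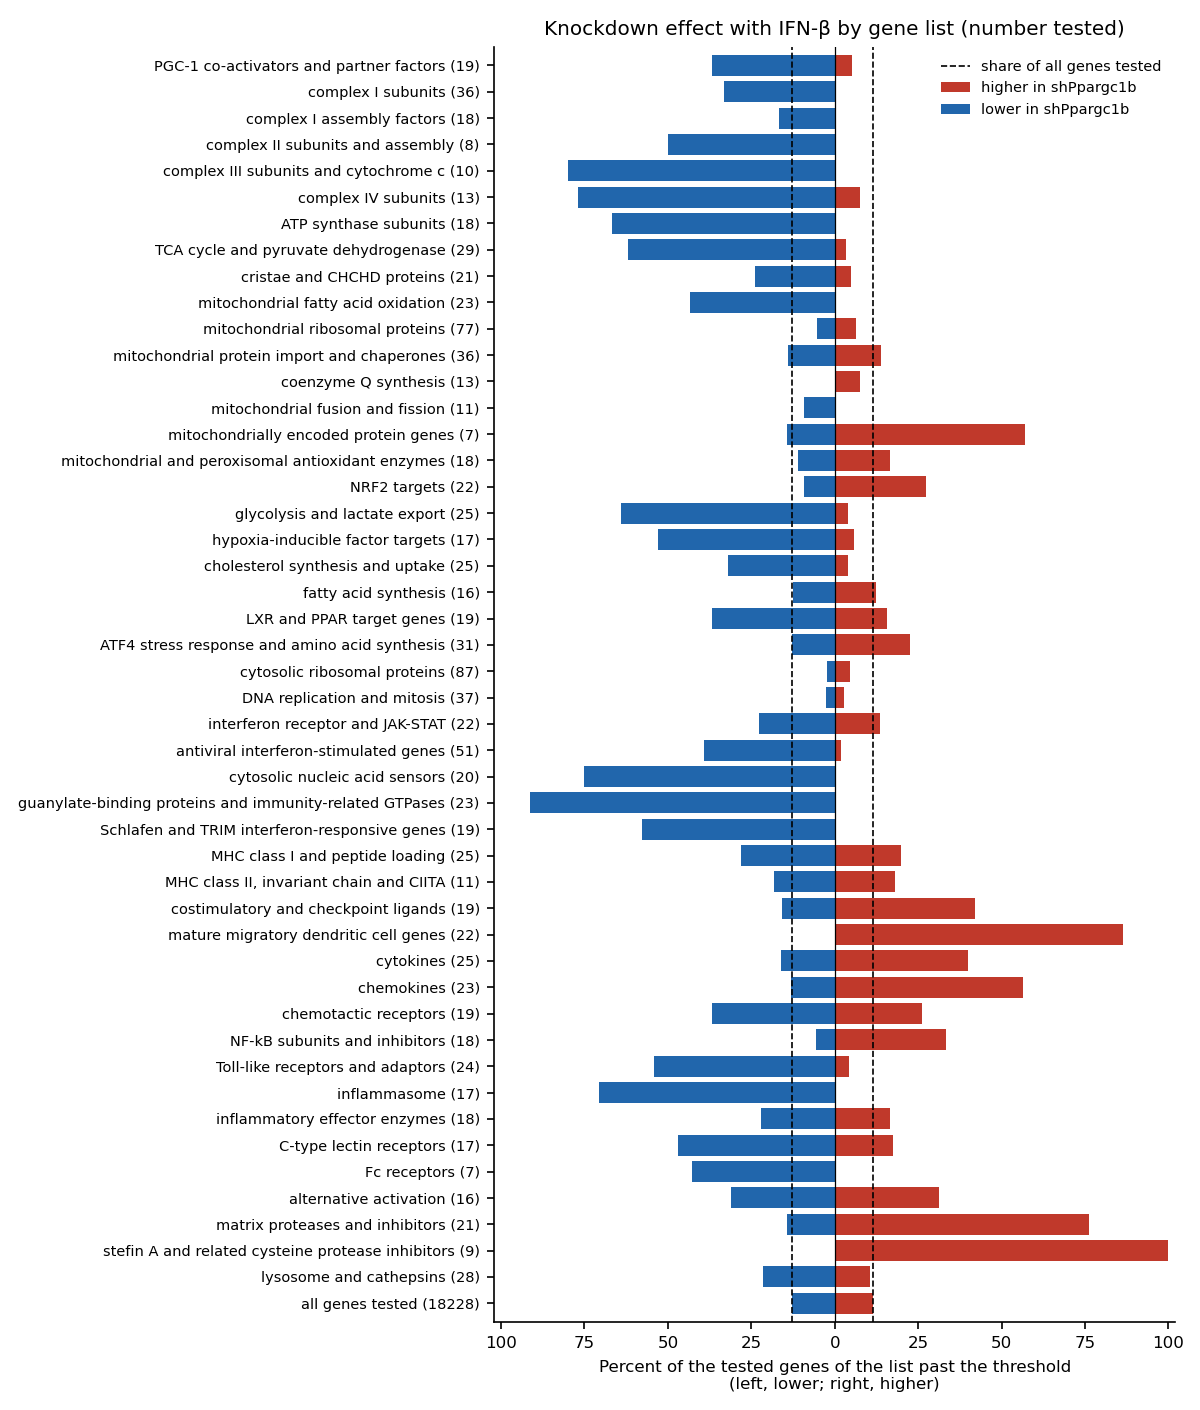
Percent of the tested genes of each list that were lower (blue, left) or higher (red, right) in sh*Ppargc1b* than in shControl libraries, both with IFN-β, with the number of tested genes in parentheses and dashed lines at the shares of all genes, 12.7% and 11.5%. The list of guanylate-binding proteins and immunity-related GTPases reaches 91.3% lower, and those of mature migratory DC genes and stefins reach 86.4% and 100% higher.

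Among interferon-induced genes, the guanylate-binding proteins (GBPs) and immunity-related GTPases (IRGs), large GTPases that attack the vacuoles of intracellular microbes, had the largest share of lower genes of the lists examined. Of 23 tested genes, 21 fell, none rose, and the median was -0.46. The count was 21 or 22 with any 1 library left out. *Gbp2* was at 2281 CPM on average in shControl and 1659 CPM in sh*Ppargc1b* libraries (-0.46, adjusted p = 1.1e-04), and *Gbp8* was at 101, 111 and 110 CPM against 58.2, 53.8 and 54.2 CPM (-0.96 ± 0.06, adjusted p = 9.2e-08). *Gbp11* (chr5:105323042-105346472) was at 23.8, 29 and 25.9 CPM against 11.1, 8.52 and 9.82 CPM (-1.42 ± 0.10, adjusted p = 2.4e-07). In 22 of the 23 genes every sh*Ppargc1b* library was below every shControl library, against 20.7% of all genes (38.7% without overlap in either direction). *Irgm1* (-0.14, adjusted p = 0.0642) and *Gbp10*, which had under 1 CPM, did not pass. In unstimulated cells 6 genes of the list were lower and 2 higher with the knockdown, with a median of -0.13. *Gbp8* (-0.85) and *Gbp11* (-1.64) were among those lower there too. Neither passed the test of a difference between treatments (adjusted p = 0.793 and 0.758), which 2 genes of the list did. Family members share long stretches of sequence, so read pairs may be split or lost between copies such as *Tgtp1* and *Tgtp2*.

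The promoters of these genes hold the motifs of the interferon pathway, and a few are shown because the genes fell together. RefSeq promoters (GRCm38.p6, 250 bases before to 50 after each start) were matched for 14 of the 23 genes, with 15 promoters. The interferon-stimulated response element, searched on both strands as GAAA, any 2 bases and GAAA, was in 80% of them against 3.44% of 32851 promoters of all genes, and the gamma-activated site, searched as TTCNNNGAA, was in 53.3% against 8.3%. In 5 IRG-type promoters (*Igtp*, *Irgm2*, *Tgtp1*, *Tgtp2* and *Gm12185*) the gamma-activated site began 11 bases before the response element. No other promoter of the 32851 had this spacing on the strand of the gene, but the spacing was picked from these promoters, so this is no test. Stretches of these related genes are nearly the same, as in *Igtp* and *Irgm2*, so they may not be 5 separate occurrences. The 110 bases before the start are printed 5′ to 3′ on the strand of the gene, with every match in capitals, for *Igtp* (chr11:58199446-58199555, plus strand), *Irgm2* (chr11:58214867-58214976, plus strand), *Tgtp1* (chr11:48992247-48992356, minus strand), *Gm12185* (chr11:48927183-48927292, minus strand), *Gbp3* (chr3:142559934-142560043, plus strand), which has 2 overlapping response elements and no gamma-activated site, and *Gbp7* (chr3:142530226-142530335, plus strand).
Igtp: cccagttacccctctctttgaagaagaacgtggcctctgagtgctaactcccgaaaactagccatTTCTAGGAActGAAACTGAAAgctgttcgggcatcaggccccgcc
Irgm2: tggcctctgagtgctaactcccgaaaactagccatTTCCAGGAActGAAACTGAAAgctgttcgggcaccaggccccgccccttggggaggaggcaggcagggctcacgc
Tgtp1: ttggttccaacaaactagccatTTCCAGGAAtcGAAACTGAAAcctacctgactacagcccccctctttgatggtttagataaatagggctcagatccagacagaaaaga
Gm12185: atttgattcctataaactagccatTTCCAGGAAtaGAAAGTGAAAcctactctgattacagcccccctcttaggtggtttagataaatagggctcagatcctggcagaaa
Gbp3: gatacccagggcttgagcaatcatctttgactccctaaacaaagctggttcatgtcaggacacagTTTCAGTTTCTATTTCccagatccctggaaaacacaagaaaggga
Gbp7: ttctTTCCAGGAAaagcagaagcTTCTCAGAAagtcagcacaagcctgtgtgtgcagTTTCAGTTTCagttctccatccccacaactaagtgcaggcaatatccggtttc
The log2 fold changes of these 6 genes were -0.37, -0.31, -0.88, -0.40, -0.49 and -0.37, each past the threshold. A match is a description of letters and not evidence of binding.

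The response element occurred in other lists too. It was in 37.5% of 48 promoters of antiviral genes, 47.6% of 21 promoters of nucleic acid sensors and 65% of 20 promoters of Schlafen and TRIM genes, and it was in 8.7% of 23 promoters of mature migratory DC genes, which rose. *Apol7c*, a gene of that last list that encodes an apolipoprotein L of antigen-handling DCs, carries a pair of overlapping elements and rose by 0.91 (adjusted p = 4.5e-04). Its promoter (chr15:77533316-77533425, minus strand) is printed for comparison, with the elements in capitals.
Apol7c: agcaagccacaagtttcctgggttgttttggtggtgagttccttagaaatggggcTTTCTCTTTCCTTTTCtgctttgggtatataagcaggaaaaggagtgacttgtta

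Other antiviral genes had smaller changes. Of 51 antiviral interferon-stimulated genes, 20 fell and 1 rose, with a median of -0.16. *Ifit1bl1* was at 1004, 1075 and 1119 CPM in shControl and at 714, 605 and 720 CPM in sh*Ppargc1b* libraries (-0.65 ± 0.10, adjusted p = 2.5e-04). *Samhd1*, which degrades the nucleotides that viruses need, was at 1961, 1931 and 1963 CPM against 1443, 1398 and 1465 CPM (-0.44 ± 0.05, adjusted p = 9.1e-06). *Mx1* and *Mx2*, dynamin-like GTPases that block virus replication, fell by 0.30 and 0.37. *Ifit1* (-0.28, adjusted p = 0.134), *Rsad2* (-0.27, adjusted p = 0.192) and *Isg15* (-0.14, adjusted p = 0.256) did not pass. When the 6 IFN-β libraries were fitted alone, *Ifit1* (adjusted p = 0.00274) and *Rsad2* (adjusted p = 0.0179) did pass, and 28 genes of the list fell and 2 rose, *Ifitm1* and *Ifit3b* (0.14, adjusted p = 0.0461 in that fit). In the analysis of all libraries the gene that rose was *Ifitm1*, a membrane protein that blocks viral entry, from 13.2, 18.6 and 17.5 CPM to 35.4, 34.9 and 42.9 CPM (1.19 ± 0.14, adjusted p = 2.0e-05).

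Genes upstream of this programme gave a mixed picture. Of 22 genes of the interferon receptors and of JAK-STAT signalling, 5 fell and 3 rose, with a median of -0.08. The receptor genes *Ifnar1* (-0.08, adjusted p = 0.25) and *Ifnar2* (0.02, adjusted p = 0.837), and *Stat2* (-0.10, adjusted p = 0.169) and *Irf9* (-0.06, adjusted p = 0.442) did not pass. *Irf1*, a transcription factor of GBP genes, was at 222, 232 and 233 CPM in shControl and at 179, 174 and 190 CPM in sh*Ppargc1b* libraries, and fell by 0.34 (SE 0.04, adjusted p = 2.6e-05). *Irf8*, which directs DC and monocyte fate, was at 130, 136 and 140 CPM against 209, 179 and 199 CPM, and rose by 0.53 (SE 0.06, adjusted p = 8.2e-06). Neither gene had overlapping groups.

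Sensors of microbes were lower as a class. Of 20 cytosolic nucleic acid sensor genes, 15 fell and none rose, of 24 genes of Toll-like receptors and adaptors, 13 fell and *Cd14* rose (0.23, adjusted p = 0.0104, and 0.0713 without sh*Ppargc1b* replicate 2), and of 17 inflammasome genes, 12 fell and none rose, with medians of -0.21, -0.18 and -0.23. *Mndal*, a PYHIN family gene, was at 945, 1027 and 985 CPM in shControl and at 695, 715 and 746 CPM in sh*Ppargc1b* libraries (-0.46 ± 0.07, adjusted p = 1.4e-04). *Tlr3*, the receptor for double-stranded RNA, was at 251, 298 and 282 CPM against 186, 204 and 202 CPM (-0.49 ± 0.07, adjusted p = 9.5e-05), and *Tlr11* fell by 1.06 (SE 0.17, adjusted p = 3.7e-04). *Nlrp1b* was at 39.9, 32 and 36.8 CPM against 19.9, 17.6 and 20.3 CPM (-0.91 ± 0.11, adjusted p = 2.3e-05). In these 4 genes no sh*Ppargc1b* library reached the lowest shControl library. *Pycard*, the adaptor ASC, fell by 0.32 (adjusted p = 2.5e-05) and *Il18* by 0.82 (adjusted p = 2.1e-04), whereas *Nlrp3* (0.01 ± 0.06, adjusted p = 0.907) and *Il1b* (0.06 ± 0.09, adjusted p = 0.692) did not pass. The PYHIN and *Naip* genes also have close copies. Of 19 Schlafen and TRIM genes, 11 fell and none rose, with a median of -0.19 and the largest fall in *Trim30c* (-0.63, adjusted p = 4.5e-05).

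**Figure D4:**
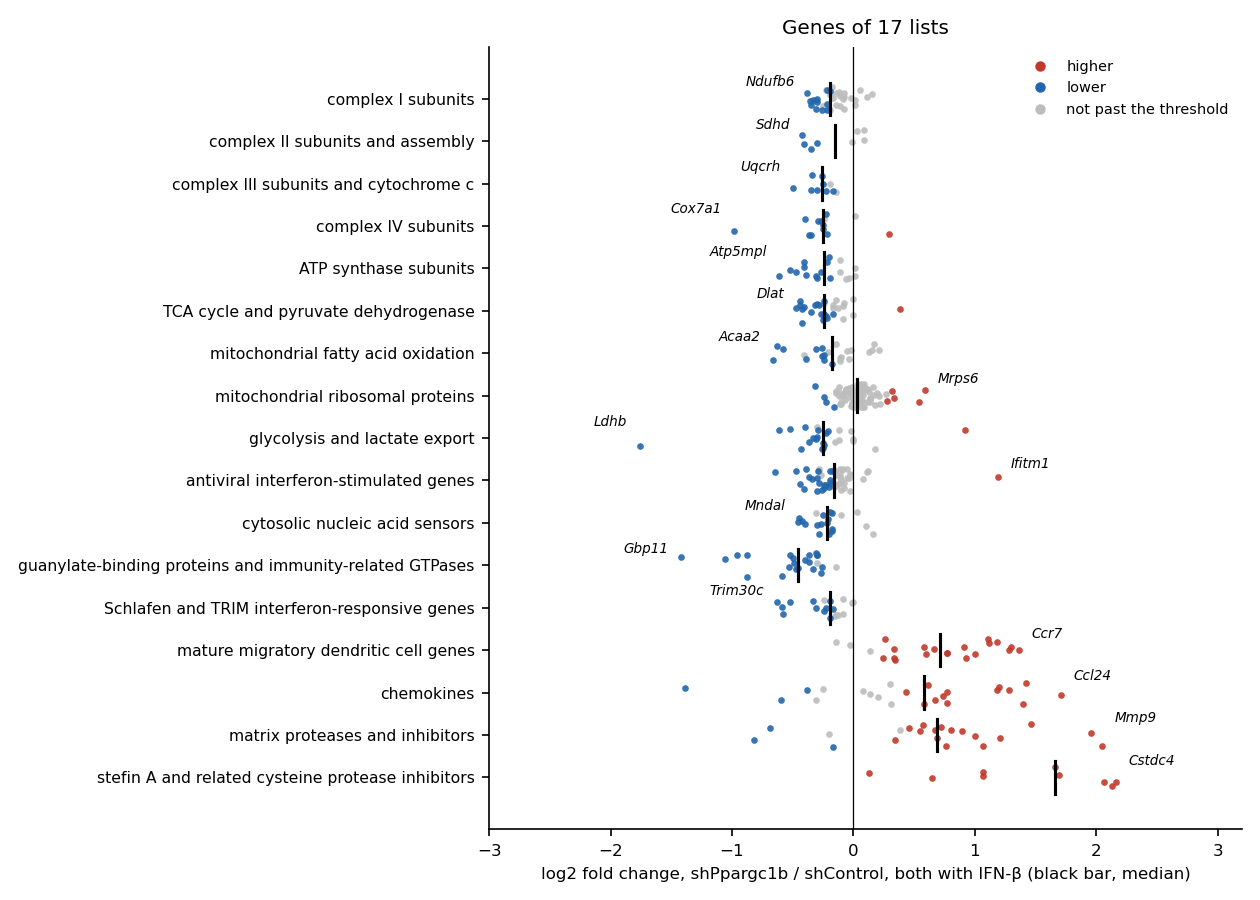
log2 fold change of sh*Ppargc1b* over shControl, both with IFN-β, for each tested gene of 17 lists (dots, red for higher, blue for lower, grey for not past the threshold), with a black bar at the median of the list and the gene farthest from 0 named. The bars of the respiratory, TCA cycle and interferon lists lie left of 0, that of mitochondrial ribosomal proteins lies at 0.03, and those of mature migratory DC genes, chemokines, matrix proteases and stefins lie at 0.71, 0.58, 0.69 and 1.66.

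In contrast, genes of mature migratory DCs rose. Of 22 tested genes, 19 rose, none fell, and the median was 0.71. *Ccr7*, the receptor that takes DCs to lymph nodes, was at 82.8, 79 and 81.7 CPM in shControl and at 238, 187 and 199 CPM in sh*Ppargc1b* libraries (1.36 ± 0.07, adjusted p = 1.2e-08). *Fscn1*, which bundles actin in the dendrites of mature DCs, was at 115, 111 and 125 CPM against 318, 248 and 300 CPM (1.30 ± 0.09, adjusted p = 1.4e-07). *Ccl22*, a chemokine of mature DCs, was at 719, 633 and 668 CPM against 1860, 1361 and 1673 CPM (1.28 ± 0.09, adjusted p = 2.1e-07). The second sh*Ppargc1b* library was the lowest of its group in all 3 genes and still lay above every control. *Cacnb3*, *Cd200* and *Tnfrsf9* rose by 1.18, 1.11 and 1.12. *Birc2* (0.14, adjusted p = 0.0822), *Birc3* (-0.03, adjusted p = 0.757) and *Epsti1* (-0.14, adjusted p = 0.469) did not pass. The list rose in unstimulated cells too, where 20 of the 22 genes were higher with the knockdown and the median was 0.65.

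Costimulatory genes rose in part. Of 19 costimulatory and checkpoint ligand genes, 8 rose and 3 fell, with a median of 0.10. *Cd83*, a maturation marker, was at 37.3, 35 and 36.7 CPM in shControl and at 83.2, 61.9 and 79.2 CPM in sh*Ppargc1b* libraries (1.04 ± 0.10, adjusted p = 2.4e-06). *Cd86*, a ligand of CD28, was at 181, 181 and 178 CPM against 236, 226 and 218 CPM (0.33 ± 0.04, adjusted p = 2.7e-05), and *Cd80*, the other CD28 ligand, rose by 0.54 (adjusted p = 1.5e-05). All 3 genes had separate groups. *Cd274*, which encodes PD-L1, was at 1191 ± 74.4 against 1214 ± 59.5 CPM (adjusted p = 0.796), and *Cd40* was at 64.2 against 63.8 CPM (adjusted p = 0.953). *Vsir*, which encodes the checkpoint ligand VISTA, fell by 0.49 (adjusted p = 4.0e-05), and the other falls, in *Icosl* and *Pvr*, were lost with single libraries left out, so that 1 fall remained without shControl replicate 2. In the 11 genes of MHC class II, 2 rose and 2 fell: *H2-Oa*, an inhibitor of peptide exchange, rose by 0.58 (adjusted p = 1.5e-04), and *H2-DMa*, which catalyses that exchange, fell by 0.31 (adjusted p = 0.00505). *H2-DMb1* (-0.24, adjusted p = 0.0333) and *H2-DMb2* (0.29, adjusted p = 0.0457), near-identical neighbours, lost their calls in some alternatives, with adjusted p of up to 0.136 without shControl replicate 1 and up to 0.243 without sh*Ppargc1b* replicate 3. Of 25 class I and peptide loading genes, 5 rose and 7 fell, and these counts dropped to 1 without shControl replicate 1 and to 3 without shControl replicate 3, so neither direction was steady.

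Most chemokine genes that changed rose. Of 23 tested chemokine genes, 13 rose and 3 fell, with a median of 0.58, and the counts were 13 and 3 with any 1 library left out. *Cx3cl1*, a membrane-bound chemokine, was at 20.6, 20.6 and 22 CPM in shControl and at 54.9, 57.3 and 55.4 CPM in sh*Ppargc1b* libraries (1.40 ± 0.06, adjusted p = 6.2e-09). *Cxcl3*, a neutrophil attractant, rose from 273 to 627 CPM on average (1.20, adjusted p = 2.3e-06), and *Ccl24* rose by 1.71 (SE 0.22, adjusted p = 3.8e-05) at a low level. The 3 that fell were *Ccl6* and the interferon-induced ligands of CXCR3, *Cxcl9* and *Cxcl10*. *Cxcl9* (chr5:92321347-92328079) was at 79.9, 87.7 and 89.5 CPM against 33.4, 23.4 and 41.5 CPM (-1.39 ± 0.14, adjusted p = 3.9e-06), with no overlap. *Cxcl10* fell by 0.60 (adjusted p = 0.0136), which DESeq2 did not call (adjusted p = 0.0914), and *Cxcl11*, the remaining ligand of that receptor, was at -0.31 (adjusted p = 0.112). A κB site, searched on both strands as GGGA, any 2 bases and TTCC, was in 26.7% of 15 chemokine promoters against 1.47% of all promoters. That of *Cxcl3* (chr5:90785991-90786100, plus strand), which holds 2 matches 1 base apart in capitals, is shown because *Cxcl3* rose, whereas *Cxcl1* (0.31, adjusted p = 0.564) and *Cxcl2* (0.20, adjusted p = 0.267), which carry the site too, did not pass and *Cxcl10*, the other carrier, fell.
Cxcl3: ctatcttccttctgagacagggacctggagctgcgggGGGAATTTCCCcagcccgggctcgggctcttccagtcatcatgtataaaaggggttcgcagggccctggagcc

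The genes of NF-κB itself, which binds such sites, changed by small amounts. Of 18 subunit and inhibitor genes, 6 rose (33.3%, against 11.5% of all genes) and 1 fell (5.56%), with a median of 0.06. From 3 to 6 rose when 1 library was left out (3 without shControl replicate 1 or sh*Ppargc1b* replicate 3). *Relb*, the subunit of the alternative pathway, was at 60.5, 60.5 and 58.6 CPM in shControl and at 84.8, 76.3 and 82.4 CPM in sh*Ppargc1b* libraries (0.44 ± 0.05, adjusted p = 6.5e-06). *Ikbke*, a kinase gene, fell by 0.34 (adjusted p = 7.3e-05).

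Cytokine genes moved in both directions. Of 25 tested cytokine genes and their antagonists, 10 rose and 4 fell, with a median of 0.15. Those that rose included the antagonists *Fst* and *Il1rn* (0.55, adjusted p = 3.8e-04) as well as *Csf1* (0.66, adjusted p = 1.0e-06), *Tgfb1* (0.31, adjusted p = 5.1e-05) and *Tnf* (0.39, adjusted p = 6.8e-04). *Il12a* rose by 1.80 (adjusted p = 0.00725) at under 1 CPM. The falls were in *Il15* (-0.41, adjusted p = 1.3e-04), *Il18*, *Tnfsf10*, which encodes the death ligand TRAIL (-0.62, adjusted p = 1.5e-04), and *Il27* (-0.38, adjusted p = 0.0398, up to 0.136 without shControl replicate 2). *Il6* (12.1 ± 0.692 against 10.6 ± 0.924 CPM, adjusted p = 0.258) and *Il12b* (3.01 ± 0.586 against 2.88 ± 0.329 CPM, adjusted p = 0.87) did not pass.

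Matrix proteases and their inhibitors rose together. Of 21 genes, 16 rose and 3 fell, with a median of 0.69. *Mmp9* (chr2:164940780-164955850), a gelatinase gene, was at 10.6, 13.4 and 13 CPM in shControl and at 51.6, 54.1 and 47.5 CPM in sh*Ppargc1b* libraries (2.05 ± 0.11, adjusted p = 1.2e-08). *Spp1*, the gene of osteopontin, was at 468, 574 and 475 CPM against 1346, 1476 and 1346 CPM (1.46 ± 0.08, adjusted p = 2.0e-08). *Timp3*, a protease inhibitor gene, was at 6.22, 5.61 and 4.83 CPM against 28.7, 14.6 and 21.1 CPM (1.96 ± 0.22, adjusted p = 1.1e-05). Its sh*Ppargc1b* libraries differed from each other by more than those of *Mmp9* or *Spp1* but all lay above the controls. *Plau*, *Serpinb2* and *Plaur* of the plasminogen system rose by 1.07, 1.21 and 0.72, and *Timp2* and *Adam17* fell along with *Fn1* (-0.69 and -0.17). In unstimulated cells 17 of the 21 genes rose and 2 fell, with a median of 0.67.

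All 9 tested genes of the stefin A cluster and related inhibitors of cysteine proteases rose, with a median of 1.66. *Cstdc4* (chr16:36184212-36188111) was at 10.1, 11.9 and 9.44 CPM in shControl and at 50.4, 45.4 and 44.9 CPM in sh*Ppargc1b* libraries (2.16 ± 0.08, adjusted p = 1.8e-09). *Cst3*, the gene of cystatin C, which lies elsewhere, rose from 579 to 906 CPM on average (0.65, adjusted p = 2.3e-06). The stefin A genes are near-identical copies, most of them were under 4 CPM, and a read that fits several copies was not counted, so they may not be 9 separate changes. Their count was 7 to 9 with 1 library left out, 7 without sh*Ppargc1b* replicate 3. In unstimulated cells all 9 rose as well, with a median of 1.57.

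Markers of the cell types that such cultures can hold were examined. Of 11 DC-like markers, 6 rose and none fell, among them *Zbtb46*, a transcription factor of classical DCs, from 22.1, 19.6 and 18.9 CPM to 33.5, 28.8 and 32.7 CPM (0.65 ± 0.09, adjusted p = 1.0e-04), and *Irf4*, from 232, 202 and 189 CPM to 326, 320 and 340 CPM (0.66 ± 0.06, adjusted p = 2.5e-06). The summed level of these markers was 2019 to 2332 CPM in shControl and 2540 to 2664 CPM in sh*Ppargc1b* libraries. Of 12 macrophage-like markers, 5 fell and 1 rose, with a summed level of 3816 to 4083 against 3397 to 3560 CPM. Of these, *Mertk*, a receptor for dying cells (-0.27, adjusted p = 9.2e-04), and *Mrc1* fell in every alternative, *Adgre1* (0.06, adjusted p = 0.564) and *Csf1r* (-0.05, adjusted p = 0.324) did not pass, and the count of falls was 2 without shControl replicate 3. Markers of both kinds were present in every library, and the part of culture composition in the results was not tested.

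Markers of other cell types were examined as well. Of 11 neutrophil-like markers, 2 rose, *S100a8* (0.88, adjusted p = 0.0246, up to 0.121 without sh*Ppargc1b* replicate 3) and *Cxcr2* (0.72, adjusted p = 0.0383, up to 0.167 without the same library), with a summed level of 61.8 to 121 CPM in shControl and 107 to 189 CPM in sh*Ppargc1b* libraries, and the defining *Ly6g* was under 1 CPM on average in both groups. Their part in the results was not tested. Of 6 mast cell or basophil-like markers, 1 rose, *Gata2*, from 1.25, 1.51 and 1.66 CPM to 4.13, 4.96 and 3.27 CPM (1.47 ± 0.20, adjusted p = 5.7e-05), while *Tpsb2*, *Cma1* and *Mcpt4* had too few counts to test. Of 5 eosinophil-like and 3 plasmacytoid-like markers none passed, with summed levels of 34.6 to 64.9 against 26.8 to 50 CPM and of 208 to 226 against 225 to 230 CPM, and lymphocyte-like markers summed to at most 0.572 CPM in any of the 6 libraries. Osteoclast-like markers summed to 706 to 742 CPM in shControl and 819 to 868 CPM in sh*Ppargc1b* libraries, and their part in the results was not tested. Of 5 of them, *Ocstamp* (1.42, adjusted p = 8.5e-08) and *Dcstamp* (0.67, adjusted p = 5.6e-06), which drive cell fusion, rose, and *Ctsk* and *Acp5*, which digest bone, were at -0.66 (adjusted p = 2.5e-04) and -0.24 (adjusted p = 0.0469, up to 0.179 without shControl replicate 3).

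To ask whether the knockdown acted differently with IFN-β than without it, the interaction was tested, which is the knockdown effect with IFN-β minus that in unstimulated cells. Of 18228 genes, 133 (0.73%) passed, 11 (0.0603%) with a positive and 122 (0.669%) with a negative value. This count depended on single libraries, from 36 without unstimulated shControl replicate 3 to 271 without sh*Ppargc1b* IFN-β replicate 2. None of the genes of complexes I to IV, of ATP synthase, of the TCA cycle or of fatty acid oxidation passed. Among antiviral genes 10 of 51 passed, and all 10 were negative, with a median of -0.33 over the list. Their knockdown effect was at a median of 0.15 without IFN-β, where 15 rose and 3 fell, and at -0.16 with it. The MHC class I list had 6 of 25 genes with a negative value, and the other interferon lists had 1 to 3 genes each.

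The 6 most negative values among genes with enough expression belonged to immune genes whose shControl mean was higher with IFN-β than without it, in *Tnfsf4* 34.1 against 9.45 CPM and in *Ifi44* 652 against 21.6 CPM. *Tent5c*, a poly(A) polymerase gene, was at 142 ± 7.77 CPM in shControl and 122 ± 3.42 CPM in sh*Ppargc1b* cells with IFN-β, where the knockdown effect was -0.22, against 0.66 without IFN-β (interaction -0.88, adjusted p = 5.2e-05). *Ccl5* rose with the knockdown in both treatments, by 0.61 with IFN-β, from 127, 118 and 116 CPM to 211, 176 and 164 CPM, and by 1.47 without it (interaction -0.85, adjusted p = 0.0094). *Tnfsf4*, which encodes OX40 ligand, did likewise, by 0.99 and 1.79 (interaction -0.80, adjusted p = 0.00653). *Ifi44* was at 652 ± 16 against 637 ± 17.5 CPM with IFN-β and rose by 0.82 without it (interaction -0.85, adjusted p = 0.00617). *Tagap* fell by 0.83 with IFN-β, from 82.9, 91.5 and 90.3 CPM to 47.5, 47 and 54.4 CPM, and was at -0.04 without it (interaction -0.79, adjusted p = 0.00962). *Cd69*, an early activation marker, fell by 0.28 with IFN-β (adjusted p = 0.0247, up to 0.101 without shControl replicate 2) and rose by 0.58 without it (interaction -0.86, adjusted p = 0.00905). For *Cxcl9* the effects were -1.39 and -0.02, and the difference did not pass (adjusted p = 0.117).

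The 6 most positive values among genes with enough expression were in *Mfap3l* (0.88, adjusted p = 0.0117), *Arhgap26* (0.82), *Fam43a* (0.57), *Fabp4* (0.49), *Irs2* (0.49) and *Ivns1abp* (0.36). *Mfap3l* was at 5.72, 6.35 and 6.09 CPM in shControl and at 12.2, 12.7 and 10.1 CPM in sh*Ppargc1b* cells with IFN-β (knockdown effect 0.94, adjusted p = 1.2e-05), against an effect of 0.06 without IFN-β. *Irs2*, an adaptor of insulin signalling, fell with the knockdown in unstimulated cells (-0.36, adjusted p = 9.6e-05), was at 0.12 in treated cells (adjusted p = 0.131), and passed the test of the difference (adjusted p = 0.0094). *Fabp4*, a fatty acid carrier and PPARγ target, fell in both, by 0.65 with IFN-β and by 1.14 without it. The interactions of *Fabp4*, *Ivns1abp* and *Arhgap26* were lost when single libraries were left out, with adjusted p of up to 0.102 (without shControl IFN-β replicate 2), 0.0659 (without shControl IFN-β replicate 3) and 0.0656 (without unstimulated shControl replicate 3).

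**Figure D5:**
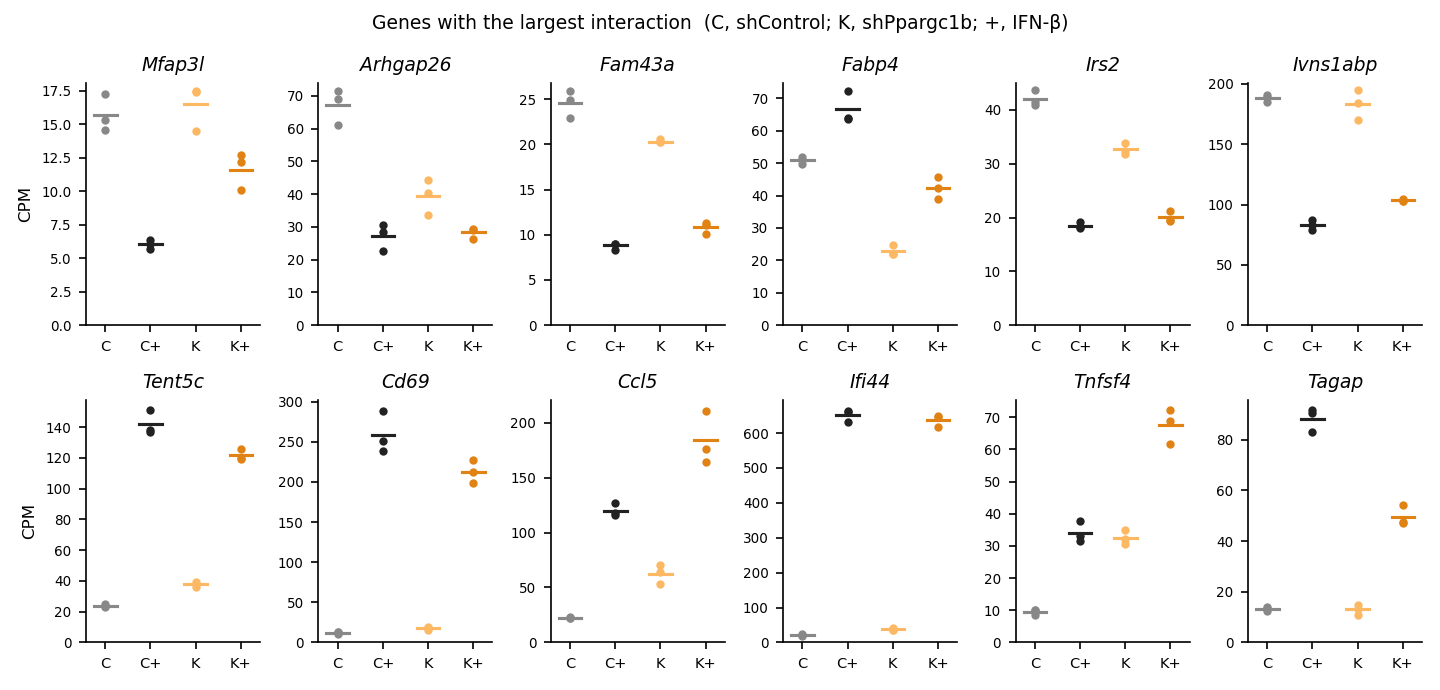
CPM from 0 in each of the 12 libraries for the 6 genes with the most positive (top) and the 6 with the most negative (bottom) interaction, with 1 dot per library and a bar at the group mean, for shControl (C) and sh*Ppargc1b* (K) cells without and with (+) IFN-β. In *Mfap3l* the treated knockdown stands above the treated control, while in *Ifi44* the treated groups are level at 652 and 637 CPM.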

How the data were processed

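RNA-seq was measured in 12 libraries of bone marrow-derived DCs, 3 for each of shControl and sh*Ppargc1b* with and without IFN-β for 6 h. The authors trimmed adapters (Trim Galore 0.6.0 per the submitters' processing notes), mapped read pairs to mm10 with STAR (2.7.8a per the same notes) and deposited a table of raw counts per GENCODE gene. STAR counts only read pairs that map to 1 place, so genes with near-identical copies are undercounted, and the strand setting was not given in the sources used here. No column of per-sample values was left out (0 not used).

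From these counts, 18228 genes passed edgeR's filterByExpr (minimum count 10, minimum total 15). Counts were scaled by TMM factors and tested with edgeR 4.0.16 (R 4.3.3) by quasi-likelihood, over all 12 libraries with 4 group means, which share 1 dispersion estimate per gene. The comparison was sh*Ppargc1b* against shControl with IFN-β, and the interaction compared it with the same contrast in unstimulated cells. Unless an alternative analysis is named beside it, an adjusted p is a Benjamini-Hochberg value of this test over all 18228 genes. The threshold was 0.05, ± after a fold change is the SE, and ± after a CPM mean is the SD (n = 3). Replicate numbers were given in accession order. The 57 lists and the members named were chosen with earlier results of these data known. Named by rule were the 12 largest rises and falls, the 6 largest changes in CPM, up to 4 called genes per list, the PGC-1 list, the 6 largest interactions each way and genes the study names. Other genes were named for their known role after their values were seen. Gene positions are from GENCODE M21 (GRCm38).

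Promoters of RefSeq genes (GRCm38.p6) were searched for 4 motifs on both strands. Alternatives were DESeq2 1.42.0, RLE size factors, library totals without TMM, no filter on low counts, a block for the run of library codes, the 6 IFN-β libraries alone and leaving out each library. The fit was first tested on simulated data with known changes. Some results are not reported here.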

Additional observations from a re-analysis of the deposited data

Results flagged for a closer look

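The knockdown effect differed between treated and unstimulated cells in 133 genes by edgeR's interaction test, and the named genes among them are given here as the effect with IFN-β minus the effect without it, on the log2 scale. Negative values were found in *Tent5c* (-0.88), *Cd69* (-0.86), *Ccl5* (-0.85), *Ifi44* (-0.85), *Tnfsf4* (-0.80), *Tagap* (-0.79), *Ifi205* (-0.71), *Cd86* (-0.57) and *Wars* (-0.36). Positive values were found in *Mfap3l* (0.88), *Arhgap26* (0.82), *Fam43a* (0.57), *Fabp4* (0.49), *Irs2* (0.49) and *Ivns1abp* (0.36). Of these 15 genes *Tent5c* was the steadiest, with an adjusted p of 5.1e-04 or less whichever library was left out. *Ifi205* lost its call in 9 and *Wars* in 3 of the 12 fits without 1 library, with adjusted p of up to 0.142 and 0.0804, both without unstimulated shControl replicate 3. *Cd86* kept an adjusted p of 0.00516 or less. The gap test for 1 sample far from its group was not run, since it needs at least 4 samples. By counts, sh*Ppargc1b* IFN-β replicate 2 was the furthest from its group (chi-square per degree of freedom 21.3 and 16.7), and 271 genes passed the interaction without it.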

How the results depend on the processing

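The number of genes past the threshold with IFN-β, 4414, was between 4137 (IFN-β libraries alone) and 5180 (run block) under the other settings and between 3375 and 4466 with 1 library left out. The share of these genes that were higher was 47.3%, and passed 50% in several fits: 54.4% with library totals, 52.8% with the IFN-β libraries alone, 51% without the filter and 53.7% to 54% without any 1 unstimulated library. It was 43.2% to 44.8% without any 1 IFN-β library. *Ppargc1b* was between -0.69 and -0.47 with 1 library left out, always past the threshold. The interaction count of 133 was less steady: 448 by DESeq2, 425 with the run block, 525 without the filter, 84 with library totals, and 36 to 271 with 1 library left out. The lowest count was without unstimulated shControl replicate 3 and the highest without sh*Ppargc1b* IFN-β replicate 2, and the cause was not tested. Without IFN-β the knockdown count was 3332 to 4466 with 1 library left out. Neither the sign of *Ppargc1b* nor that of a named gene past the threshold reversed under these settings. Of the list members and named genes, 122 of 171 that were higher, 239 of 310 that were lower and 497 of 651 that did not pass kept their call in all 18 alternatives. No paired analysis was possible because the labels give no replicate numbers, so pairs could be formed from the runs of library codes only, which gave the run block above. Deviations of libraries of the same run correlated at 0.0276 to 0.146 (median 0.0867) and those of different runs at -0.154 to 0.0565 (median -0.0436). With 3 libraries a group and no independent estimate of culture variation, small changes are the least certain.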

Other observations

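Some genes of sterol synthesis were lower with the knockdown in IFN-β-treated DCs. Of 25 genes of cholesterol synthesis and uptake, 16 did not pass and *Idi1* rose (0.20, adjusted p = 0.0265, and 0.145 without sh*Ppargc1b* replicate 3), with a median of -0.16. The genes that fell were 8 (32%, against 12.7% of all genes), and 6 to 11 with 1 library left out. They included *Insig1*, a brake on sterol synthesis and itself a target of its regulator (-0.57, adjusted p = 6.8e-06), and the late enzyme *Dhcr7* (-0.40). Of 16 fatty acid synthesis genes, 2 fell and 2 rose (12.5% each), near the shares of all genes. *Acly*, which makes cytosolic acetyl-CoA from citrate (-0.42, adjusted p = 3.6e-05), and *Acacb* (-0.99, adjusted p = 0.00231) fell. *Fads1* (0.50, adjusted p = 2.6e-05) and *Me1* (0.46, adjusted p = 0.0385) rose. Of 31 genes of the ATF4 stress response and of amino acid supply, 7 rose and 4 fell. The importers *Slc7a5* (1.04, adjusted p = 4.1e-04) and *Slc7a1* (0.49) were among the rises, and *Wars*, a tRNA synthetase gene that interferon also induces, was among the falls (-0.50, adjusted p = 1.4e-06). Of 87 cytosolic ribosomal protein genes, 4 rose and 2 fell, shares under those of all genes, although 15 were higher without unstimulated sh*Ppargc1b* replicate 3.

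More uptake receptor genes fell than rose. Of 17 C-type lectin receptor genes, 8 fell, among them *Clec4a3* (-0.96) and *Clec12a* (-0.76), and *Clec4n* (0.31), *Clec5a* (0.46) and *Clec7a* (0.36) rose. The summed level of this list went the other way, from 4816 to 4988 CPM in shControl to between 5108 and 5263 CPM in sh*Ppargc1b* libraries. Of 7 Fc receptor genes, *Fcgrt* (-0.83), *Fcgr4* (-0.53) and *Fcgr1* (-0.27) fell. *Arg1*, which breaks down arginine, was at 504, 721 and 616 CPM in shControl and at 230, 379 and 289 CPM in sh*Ppargc1b* libraries (-1.03, adjusted p = 5.2e-04), whereas *Arg2*, its mitochondrial relative, rose (0.67, adjusted p = 0.00332). *Retnla*, a gene of alternatively activated macrophages, fell by 1.79 (adjusted p = 5.2e-04). Of 28 lysosome and cathepsin genes, 6 fell and 3 rose. Of 37 genes of DNA replication and mitosis, *Bub1b* fell (-0.39, adjusted p = 0.0102) and *Cdk2* rose (0.20), and 12 fell under the run block or without the filter on low counts. Of 19 receptors for chemotactic signals, 7 fell, among them *Ccr2* (-0.68, adjusted p = 0.00308), and 5 rose, among them *Ccr7* and *Gpr183* (0.78), a receptor for oxysterols.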
